A study of Oryza sativa Japonica Group with 6 samples.

Results

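Among the miRNAs of rice anthers listed for Taichung65-4x, an autotetraploid, and Taichung65-2x, its diploid, miR1425 was represented by 1 mature sequence, osa-miR1425-5p (osa for Oryza sativa). It was found by taking every row whose name holds miR1425 or MIR1425. There was 1 such row of 486 when the tables of both ploidies were joined, 1 of 441 for Taichung65-4x and 1 of 402 for Taichung65-2x, and the same name and sequence stood in both. No row for the other arm of the hairpin or for a length variant was among them, so a share of the arms could not be given.

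A plant miRNA is cut from a hairpin transcript by a Dicer-like enzyme, loaded into an Argonaute protein and guided by base pairing to mRNAs, which are then cleaved or held back from translation. miR1425 is known in rice for targeting mRNAs of pentatricopeptide repeat (PPR) proteins, among them relatives of the fertility restorers. PPR proteins bind RNA in mitochondria and plastids, and the restorers of this family act on mitochondrial transcripts that cause cytoplasmic male sterility, so pollen development is where these genes are best known. No target mRNA was measured here, and the role as a regulator of restorers is background, not a result.

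The sequence of osa-miR1425-5p is shown first because all levels belong to this single molecule, and that of osa-miR5505_R-3 follows as the only other listed name with the same seed. Both are DNA letters as deposited, 5′ to 3′, with the seed (bases 2 to 8) in capitals.
osa-miR1425-5p: tAGGATTCaatccttgctgct
osa-miR5505_R-3: gAGGATTCggtattgatcg
osa-miR1425-5p was 21 nt long, the usual length of a DICER-LIKE1 product, began with T (U in the RNA), and held 9 G or C bases (42.9%). Of the 226 distinct sequences of 21 nt in the tables, 118 (52.2%) began with T, and their median G and C content was 47.6%. The authors marked the sequence as identical to its miRBase entry. osa-miR5505_R-3, of 19 nt, was listed for Taichung65-4x alone, at 12.2, 8.15 and 4.78 normalized reads over the 3 stages from before meiosis to microspores. The shared bases 2 to 8 thus belonged to an RNA of low level. The paper's target prediction used a longer seed, which these 2 sequences do not share, and targets in common were not tested. The longest stretch that osa-miR1425-5p shared with any other listed miRNA was 8 nt, unlike members of families such as miR166, which can be alike over nearly their whole length and share reads. The genome position of the hairpin is not given here.

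Taichung65-4x is an autotetraploid made from the diploid Taichung65-2x with colchicine and selfed for more than 20 generations, and both were field grown. Anthers were staged by the size of the floret and anther at pre-meiotic interphase (PMA), meiosis (MA) and the single microspore stage (SCP). In Taichung65-4x the florets measured 3.50–4.00, 4.80–5.30 and 6.50–7.00 mm at PMA, MA and SCP, and the anthers 0.90–1.40, 1.45–1.95 and 1.50–2.05 mm. In Taichung65-2x the florets measured 2.50–3.00, 3.80–4.30 and 5.50–6.00 mm and the anthers 0.75–0.85, 1.00–1.35 and 1.40–1.55 mm. Each of the 6 groups had 1 small RNA library, so every comparison is of 2 libraries and not of the conditions, and no p-value or SD is given. Ploidy is also 1 line each, so the chromosome number and the later history of the line cannot be told apart. Nor can ploidy be told apart from how far anthers of unlike size had developed within a stage.

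Levels are normalized reads (signal), which the paper describes as the copy number times 1 correction factor of the library. Not every listed value was a whole number of reads on that account. Where 3 values stand together for a ploidy, they are in the order PMA, MA, SCP. A miRNA was called higher or lower where its larger value exceeded 10 and the fold exceeded 2. For the miRNAs listed, the summed signal was divided by the value taken as that of 1 read. This gave between 77399 and 113099 reads in a library, or 1.53% to 2.17% of its clean reads. The families of the small RNA triggers that mark young anthers were abundant in every library. Their sums hold opposite arms of the hairpins as well as the triggers themselves. Of miR2118, which starts 21 nt phased siRNAs, 30 names were listed in the tetraploid and 31 in the diploid. They carried 19.6%, 13.9% and 10.4% of the signal of the table in the tetraploid, and 25.6%, 12.9% and 5.99% in the diploid. Of miR2275, which starts 24 nt phased siRNAs, 11 names were listed in each ploidy. They carried 12.5%, 14.5% and 17.8% in the tetraploid and 14.8%, 13.8% and 16.2% in the diploid. These shares moved with stage and ploidy, and their part in the values of osa-miR1425-5p was not tested.

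osa-miR1425-5p was among the abundant miRNAs of all 6 libraries and its lowest level was in the diploid before meiosis. In the tetraploid it stood at 1072 (998.6–1150) at PMA, 1277 (1212–1346) at MA and 958.6 (905.1–1014) at SCP. In the diploid it stood at 544.0 (492.3–599.7) at PMA, 1684 (1606–1764) at MA and 1359 (1292–1429) at SCP. The ranges in parentheses are 95% exact Poisson intervals, which cover counting error alone. As deposited, the 3 tetraploid levels lay inside the diploid range, the highest of them 1.33 times the lowest (1.90, 1.81 and 2.05 times with libraries set to equal sums, by median ratio or by clean reads). In anthers as a whole, fewer cells of a type and less of the miRNA per cell cannot be told apart.

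The levels rest on many reads, each value being a whole number of them. The libraries held 789, 1410 and 1202 reads in the tetraploid, and 404, 1784 and 1530 in the diploid. Relative to clean reads these were 135, 244 and 277 RPM in the tetraploid and 64.3, 258 and 382 RPM in the diploid, the lowest again in PMA-2x. By level as deposited, the libraries ran in the order MA-2x, SCP-2x, MA-4x, PMA-4x, SCP-4x and PMA-2x. The counting intervals of SCP-2x and MA-4x overlapped, as did those of PMA-4x and SCP-4x, and no other neighbours in that order did.

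**Figure D1:**
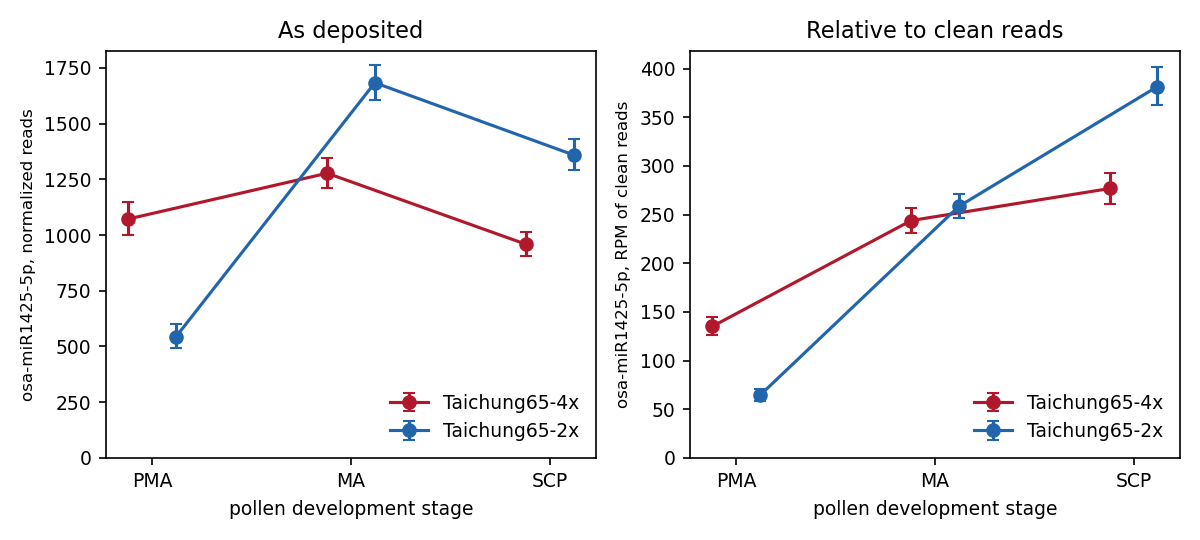
Level of osa-miR1425-5p (vertical axes, from 0) by stage of pollen development in the tetraploid (Taichung65-4x, red) and the diploid (Taichung65-2x, blue), in normalized reads as deposited (left) and as RPM of clean reads (right), with 1 library per point and bars for the 95% Poisson interval of the reads. As deposited, the tetraploid libraries lay between 958.6 and 1277 and the diploid ones between 544.0 and 1684, and by clean reads both ploidies were lowest at PMA.

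The place of osa-miR1425-5p among the other miRNAs of the same library does not depend on the correction factor. It made up 0.828%, 1.47% and 1.55% of the signal of the table in the tetraploid, and 0.419%, 1.58% and 1.76% in the diploid. By abundance it ranked 36, 16 and 15 of 441 in the tetraploid and 54, 14 and 12 of 402 in the diploid. It therefore ranked nearer the top at MA and SCP than at PMA in both ploidies. Its level was 41.5, 58.8 and 48.1 times the median miRNA of the library in the tetraploid and 15.5, 59.5 and 66.5 times that median in the diploid.

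The miRNAs next to it in abundance show the levels it shared. In the tetraploid the next above it was osa-MIR529a-p5 at all 3 stages (1107, 1324 and 973.7), from a hairpin of miR529, a regulator of SPL transcription factors. Just below it in the tetraploid were osa-MIR5792-p3 (1003) at PMA, osa-miR5796 (1245) at MA and osa-miR168a-3p_L-3 (904.4) at SCP. In the diploid the next above were osa-miR166h-5p (546.0) at PMA, osa-miR168a-5p (1732) at MA and osa-miR5792_1ss22AC (1738) at SCP. Just below it in the diploid were osa-miR167a-5p (538.6), of the family that targets auxin response factors, at PMA, osa-miR2118b (1641) at MA and osa-miR5796 (1329) at SCP.

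Before meiosis the tetraploid library held nearly 2 times as much osa-miR1425-5p as the diploid one. The anthers at PMA measured 0.90–1.40 mm in the tetraploid and 0.75–0.85 mm in the diploid. The tetraploid range spans that of the diploid at MA, 1.00–1.35 mm. Ploidy and how far the anthers had developed therefore cannot be told apart in this ratio. The level was 1072 in PMA-4x, against 544.0 in PMA-2x, a ratio of 1.97 (95% interval of the counting error 1.75–2.23) and a log2 ratio of 0.98, just under the 2-fold limit, so it was not called. Of the 397 miRNAs tested at PMA 11.1% were called in either direction. The median log2 ratio was 0.00 over the miRNAs in both tables and 0.11 over those of 21 nt. A higher ratio was seen for 21 of 340 other miRNAs in both tables, and for 7 of 188 of 21 nt. Among the 61 others that reached at least 500 in 1 of these libraries, a limit chosen after the values were seen, 1 had a higher ratio, osa-miR528-5p, which belongs to the copper-responsive miRNAs.

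At meiosis the values stood the other way round, and no call was made. The level was 1277 in MA-4x, against 1684 in MA-2x, a ratio of 0.759 (0.707–0.814) and a log2 ratio of −0.40. At MA 14.5% of 380 tested miRNAs were called. The ratio was close to that of the 21 nt miRNAs as a class, whose median log2 ratio was −0.49, and 190 of 329 others had a higher ratio.

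At the single microspore stage the level was 958.6 in SCP-4x, against 1359 in SCP-2x, and again no call was made. The ratio was 0.705 (0.653–0.761), a log2 ratio of −0.50, where 23.6% of 382 tested miRNAs were called. Here the value equalled the median of the 21 nt miRNAs, −0.50, with 84 of 168 others of that length above it and 84 below. Among the 3 ploidy ratios, PMA is therefore the only one where osa-miR1425-5p lay more than 0.1 log2 from its length class (0.87 above it, against 0.09 at MA and 0.00 at SCP).

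Scaling moves the ploidy ratios but not their order. When libraries were set to equal sums, by the median ratio or by their clean reads, the log2 ratio of Taichung65-4x to Taichung65-2x was 0.99, 0.99 and 1.07 at PMA, and by clean reads it passes the 2-fold limit. At MA it was −0.09, −0.10 and −0.08, and at SCP −0.16, −0.45 and −0.46. The deposited difference at MA thus shrinks to a ratio near 1 in each of the other scalings. The scalings move the median of the miRNAs in both tables, −0.26 at MA as deposited, to 0.05, 0.05 and 0.06, and at MA they turn the balance of all calls from 20 higher and 35 lower to 40 and 14, 39 and 15, or 41 and 14. At SCP the 51 higher and 39 lower became 102 and 21, 70 and 42, or 79 and 42.

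**Figure D2:**
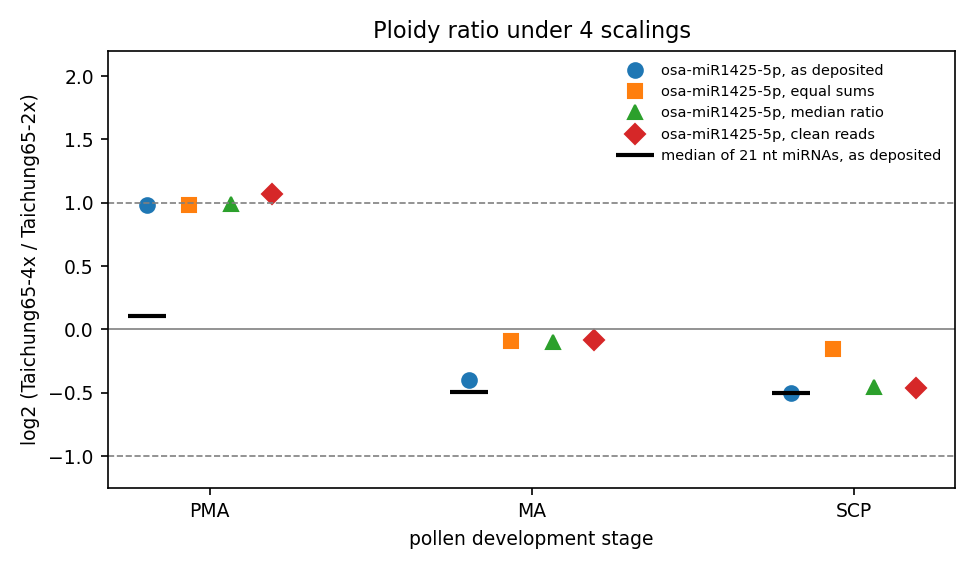
Log2 ratio of osa-miR1425-5p in Taichung65-4x to that in Taichung65-2x (vertical axis) at each stage under the deposited scaling and 3 others, with the median of the 21 nt miRNAs as deposited (black bars) and dashed lines at 2-fold. The 4 markers at PMA lay between 0.98 and 1.07, while those at MA and SCP lay between −0.50 and −0.08.

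In the tetraploid no stage comparison of osa-miR1425-5p was called, and its log2 ratios lay above the median of the 21 nt miRNAs in each. It stood at 1277 in MA-4x, against 1072 in PMA-4x (ratio 1.19, 1.09–1.30, log2 0.25), where 39.5% of 397 tested miRNAs were called and the 21 nt median was −0.81. It stood at 958.6 in SCP-4x, against 1277 in MA-4x (ratio 0.750, 0.694–0.811, log2 −0.41), where 30.5% of 390 were called and the 21 nt median was −0.77. For SCP-4x against PMA-4x the ratio was 0.894 (0.817–0.979, log2 −0.16), where 61.5% of 421 were called and the 21 nt median was −1.75.

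How far the tetraploid stages lay apart depends on the scaling, as does the direction of SCP over MA and of SCP over PMA, which turn positive under each other scaling. The highest stage was 1.33 times the lowest in the tetraploid as deposited, less than for all but 31 of 355 other miRNAs, whose median was 2.82. It was 1.90, 1.81 and 2.05 times by equal sums, by the median ratio and by clean reads, where 117, 102 and 144 of the 355 had a smaller spread. The log2 ratio of MA-4x to PMA-4x was then 0.83, 0.82 and 0.85. As deposited, its log2 ratio exceeded the 21 nt median by 1.06 for MA over PMA, 0.35 for SCP over MA and 1.58 for SCP over PMA.

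In the diploid osa-miR1425-5p rose 3.09-fold on entry into meiosis, and it was 2.50-fold above the level before meiosis at the microspore stage. It stood at 1684 in MA-2x, against 544.0 in PMA-2x, with a counting interval of 2.78–3.46 and a log2 ratio of 1.63. Of the 379 miRNAs tested 27.7% were called in either direction and 5.54% (21 miRNAs) as higher, while the 21 nt median was −0.22. The balance of 21 higher and 84 lower became 33 and 34 by equal sums, again 33 and 34 by the median ratio, and relative to clean reads 37 and 26. Of 343 others 8 had a higher ratio, and of the 60 others that reached at least 500 none did. The ratio was 3.76, 3.77 and 4.02 by equal sums, by the median ratio and by clean reads, so the rise was called in all 4 scalings.

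From meiosis to the microspore stage the diploid values differed less. The level was 1359 in SCP-2x, against 1684 in MA-2x (ratio 0.807, 0.754–0.865, log2 −0.31), with no call and a log2 ratio that turns positive under each other scaling, where 45.4% of 355 miRNAs were called. Across both steps it stood at 1359 in SCP-2x, against 544.0 in PMA-2x, and was called higher at 2.50-fold (2.24–2.80, log2 1.32). There 64.0% of the 389 miRNAs tested were called in either direction and 12.9% (50 miRNAs) as higher, and the 21 nt median was −1.19. The balance of 50 higher and 199 lower became 80 and 85, 97 and 65, or 119 and 51 in the other scalings, so the share called higher rests on the deposited scaling. Under the other scalings the log2 ratio of SCP-2x to PMA-2x was 2.07, 2.31 and 2.57.

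The ploidies lay farther apart in the first step than in the second, a difference that could not be tested. The log2 ratio of MA to PMA was 0.25 in the tetraploid and 1.63 in the diploid, a difference of −1.38, or a 2.60-fold larger ratio in the diploid. The difference was −1.08, −1.09 and −1.15 under the other scalings. Over the miRNAs in both tables its median was −0.29, and −0.60 over those of 21 nt. A lower value was seen for 32 of 356 others, and for 25 of 197 of 21 nt. For SCP over MA the difference was −0.11, with 132 of 356 others lower, and 79 of 197 of 21 nt. By equal sums, by the median ratio and by clean reads that difference was −0.07, −0.35 and −0.38. For SCP over PMA it was −1.48, with 28 of 356 others lower, and 19 of 197 of 21 nt. The values against PMA share their libraries with the ploidy ratio at PMA. That ratio and both diploid calls rest on PMA-2x, the 1 library of its group, so no value could be given without it.

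**Figure D3:**
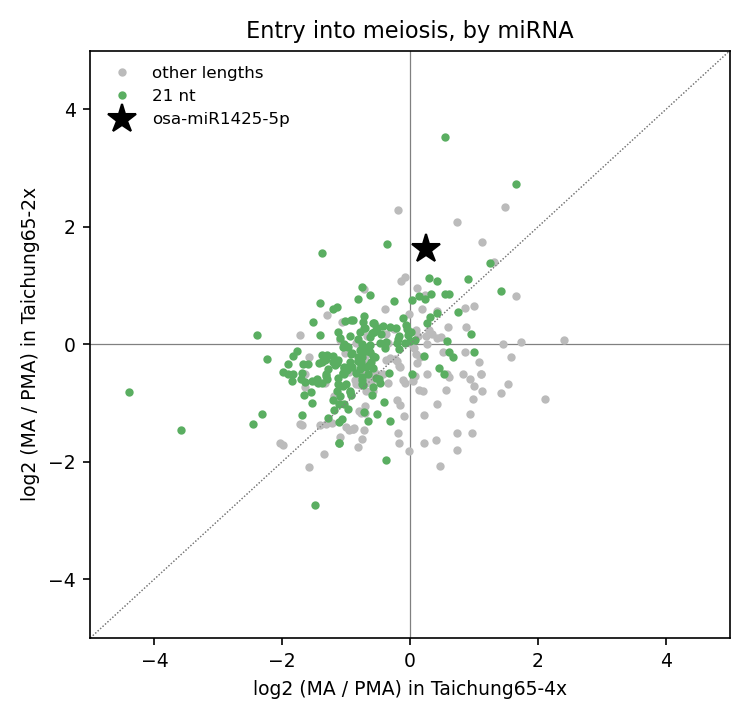
Log2 ratio of MA to PMA in the tetraploid (horizontal axis) and the diploid (vertical axis) for 332 miRNAs tested in both, those of 21 nt (191) in green and others in grey, with the dotted line where the ploidies are equal. osa-miR1425-5p (star) lay at 0.25 and 1.63, and 16 of the points are called higher in the diploid.

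The miRNAs whose levels over the 6 libraries were most like those of osa-miR1425-5p were 1 of miR168 and 4 named for miR166, not these families as wholes. Likeness was measured as Pearson's r of log2(value + 1) over 6 libraries, among 199 other miRNAs of both tables with at least 50 in a library. Their median r was −0.23, 145 of them had an r below 0, and 6 had an r over 0.8. The libraries share their stage, ploidy and correction factor, so r is a description with few points. The 4 distinct sequences of the 5 most like, and that of osa-miR2275d, 1 of the 2 least like, are shown with bases 2 to 8 in capitals to compare them with osa-miR1425-5p. The 5 most like shared a stretch of at most 3 or 4 nt with it, and osa-miR2275d 4 nt.
osa-miR168a-5p: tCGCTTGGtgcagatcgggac
osa-miR166a-3p: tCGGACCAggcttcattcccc
sbi-miR166e_3ss16AT17TC21TC: tCGGACCAggcttcatccccc
osa-miR166d-5p: gGAATGTTgtctggctcgagg
osa-miR2275d: cTTGTTTTtctccaatatctca

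Closest was osa-miR168a-5p (r = 0.889, Spearman's rho = 0.829), of the family that targets AGO1, the Argonaute that most miRNAs use. It stood at 1348, 1796 and 1155 in the tetraploid, and at 821.4, 1732 and 2327 in the diploid. Its lowest level, too, was in PMA-2x. As deposited its highest was in SCP-2x and that of osa-miR1425-5p in MA-2x, while in each other scaling osa-miR1425-5p was also highest in SCP-2x. osa-miR166a-3p (r = 0.882, rho = 0.886), a repressor of HD-ZIP III transcription factors, stood at 5272, 7673 and 5521 in the tetraploid and at 4447, 8089 and 8833 in the diploid.

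The other 3 were also of miR166. sbi-miR166e_3ss16AT17TC21TC (r = 0.882, rho = 0.829) and sbi-miR166a_R+1_1ss17TC (r = 0.854, rho = 0.829), both named for sorghum, had the same sequence and are no independent points. The other was osa-miR166d-5p (r = 0.852, rho = 0.371), the opposite arm, at 90.4, 99.0 and 103.7 in the tetraploid and 57.0, 100.5 and 94.8 in the diploid. By Spearman's rho 2 of these 5 stayed among the 5 most like. Much of the likeness rested on PMA-2x: without that library r was 0.721 for osa-miR168a-5p, 0.836 for osa-miR166a-3p, 0.586 and 0.665 for the pair named for sorghum, and 0.0507 for osa-miR166d-5p. Under equal sums r was 0.948 for osa-miR168a-5p and 0.940 for osa-miR166a-3p.

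Ratios within a library are free of its scaling. As osa-miR168a-5p and osa-miR166a-3p were chosen for likeness over these same libraries, small ploidy differences against them are partly fixed by that choice. The ratio of osa-miR1425-5p to osa-miR168a-5p was 0.795 in PMA-4x and 0.662 in PMA-2x, a log2 difference of 0.26. Its ratio to osa-miR166a-3p was 0.203 in PMA-4x and 0.122 in PMA-2x, a log2 difference of 0.73. At MA the log2 differences were −0.45 and −0.32, and at SCP they were 0.51 and 0.17, on the other side of 0 from the deposited ploidy ratio of −0.50. Against sbi-miR166e_3ss16AT17TC21TC and sbi-miR166a_R+1_1ss17TC, chosen in the same way, the difference at SCP was 0.19 and 0.77. Against osa-miR166d-5p, also chosen so, it was −0.63, on the same side as the deposited ratio. osa-MIR529a-p5 was chosen from these same values as its neighbour in abundance in the tetraploid. Against it the ratio was 0.969, 0.965 and 0.984 in the tetraploid and 0.492, 1.18 and 0.781 in the diploid. The tetraploid ratios are partly fixed by that choice, so it is no independent reference. The ploidies lay about as far apart at PMA against it as in the deposited values, and at MA on the same side of 0. At SCP they lay on the other side of 0 from the deposited −0.50. Size and direction of the difference thus depend on the miRNA it is set against.

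The least like were osa-miR1429-5p_R+3 (r = −0.821, rho = −0.714) and osa-miR2275d (r = −0.812, rho = −0.943). osa-miR2275d, a trigger of 24 nt phased siRNAs, stood at 1113, 1106 and 1546 in the tetraploid and 2417, 687.5 and 362.0 in the diploid, highest in the library where osa-miR1425-5p was lowest. osa-miR1429-5p_R+3 stood at 19.0, 31.7 and 31.9 in the tetraploid and 72.7, 20.8 and 12.4 in the diploid. It reached the minimum level for the likeness in PMA-2x alone, the library where osa-miR1425-5p was lowest. Its negative r is therefore partly fixed by that minimum, and without PMA-2x it was not among the miRNAs compared. For osa-miR2275d r without that library was −0.669. Under equal sums the negative r shrank to −0.345 for osa-miR1429-5p_R+3 and −0.378 for osa-miR2275d.

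**Figure D4:**
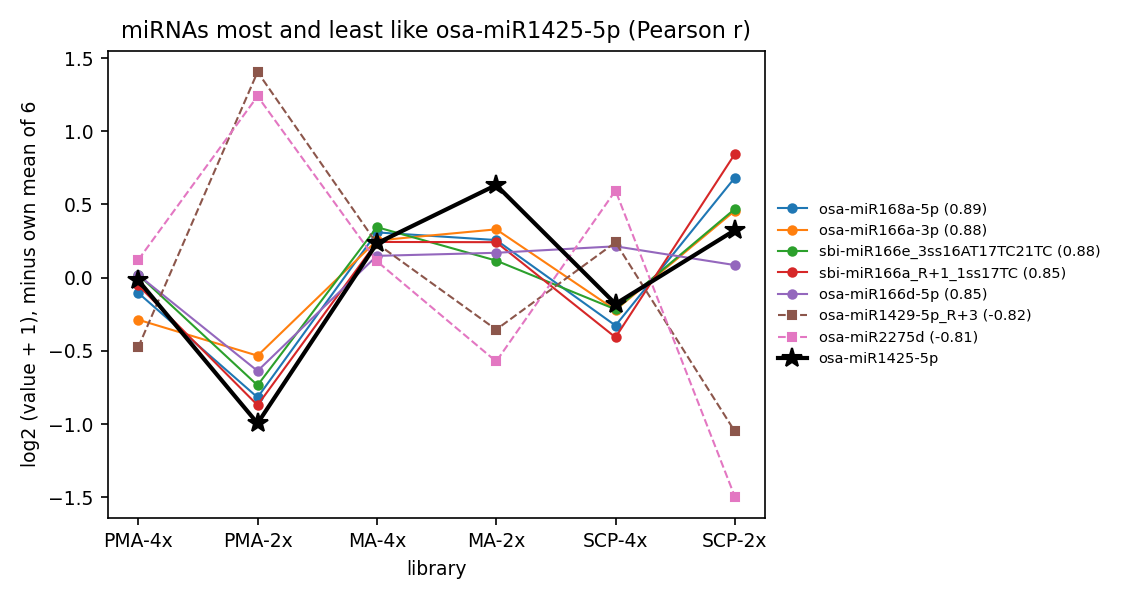
Log2(value + 1) minus each miRNA's own mean over the 6 libraries (vertical axis), by library (horizontal axis), for osa-miR1425-5p (black), the 5 miRNAs most like it (solid) and the 2 least like it (dashed), with Pearson's r in parentheses. In PMA-2x osa-miR1425-5p and the 5 most like were lowest, with osa-miR2275d at 2417 and osa-miR1429-5p_R+3 at 72.7, their highest levels.

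Among the listed miRNAs numbered in the same run, miR1423 to miR1442, osa-miR1425-5p stood out by level. It was the only row marked as identical to its miRBase entry. The 13 others were opposite arms or variants, among them a miR1436 variant named for barley. The run gave 14 rows, and the highest level of the 13 others lay between 10.8 and 214.5 with a median of 22.3. osa-miR1425-5p was 5.48, 7.79 and 4.47 times the most abundant of them in the tetraploid, and 4.08, 22.0 and 19.6 times in the diploid. The 4 others over 50 were of 22 or 24 nt, not 21 nt.

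These 4 had courses of their own. osa-miR1432-5p_R+1, of the family with calcium-binding targets, stood at 195.7, 164.0 and 214.5 in the tetraploid and 5.39, 3.77 and 69.3 in the diploid, and was called higher in the tetraploid at all 3 stages. osa-miR1423-5p_L-2R+2 stood at 101.9, 63.4 and 56.6 in the tetraploid and 133.3, 76.4 and 45.3 in the diploid, and osa-MIR1440a-p3_1ss16TC at 60.5, 40.3 and 63.0 in the tetraploid and 45.8, 34.0 and 33.8 in the diploid. Neither was called between the ploidies, and osa-miR1429-5p_R+3 was called lower in the tetraploid at PMA and higher at SCP. Of the 13 others, 1 was higher and 1 lower in the tetraploid of 11 tested at PMA, 1 higher and 0 lower of 12 at MA, and 5 higher and 0 lower of 10 at SCP, beside 11.1%, 14.5% and 23.6% called in either direction over all miRNAs. Over all 382 tested at SCP, 51 were higher and 39 lower as deposited, a balance that moved with the scaling. The 5 include variants of the same miR1436 and are not independent. For MA against PMA in the diploid, where osa-miR1425-5p was called higher, 0 were higher and 2 lower of 10 tested. Over all miRNAs 27.7% were called there in either direction and 5.54% as higher. For MA against PMA in the tetraploid 2 were higher and 0 lower of 12 tested. Over all 397 miRNAs tested there, 41 were higher and 116 lower.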

How the data were processed

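Small RNA of anthers was sequenced in 1 library for each of 6 groups. The authors trimmed and filtered the reads with ACGT101-miR, mapped them to miRBase precursors and to the rice genome (build not given in the sources used here) and multiplied copy numbers by 1 factor per library. The deposited values are this normalized signal, for miRNAs whose highest stage exceeded 10 in that ploidy. The value of 1 read was taken as the smallest positive value listed. It was 1.36, 0.906 and 0.797 in the tetraploid libraries (PMA, MA, SCP) and 1.35, 0.944 and 0.888 in the diploid ones. With a tolerance of 0.01, 72.3% to 76.1% of values were whole reads. Too few were whole for a count model, so none was run.

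The 9 comparisons (3 of ploidy, 6 of stage) called a miRNA where the larger value exceeded 10 and the fold exceeded 2, without the test of reads the authors added. A listed 0 was set at 0.01 and a miRNA not listed for a ploidy at 10. Intervals are 95% exact binomial for ratios and exact Poisson for levels. The formula of the ratio intervals was tried on simulated reads for the 3 ploidy comparisons. Those reads were drawn with the counting error that the intervals assume. The intervals of the levels were not tried. Named were the rows of miR1425, the 5 most and 2 least like, the neighbours in abundance, and rows of miR1423 to miR1442 over 50. The members and lists were chosen with earlier results of these data known. Alternatives changed the scaling, pseudocount, limit, fold and unlisted value. Leaving out a library for the likeness and the 21 nt medians were added after the data were seen. Python 3.11.15, numpy 2.4.6, pandas 2.3.3, scipy 1.17.1 and matplotlib 3.10.9 were used.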

Additional observations from a re-analysis of the deposited data

Results flagged for a closer look

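The log2 ratio of Taichung65-4x to Taichung65-2x for osa-miR1425-5p was larger at PMA than at the later stages, by 1.38 over MA and by 1.48 over SCP, with values above 0 at PMA and below 0 at MA and SCP. Between SCP and PMA the 2 ploidies moved opposite ways as deposited, with a log2 ratio of −0.16 in Taichung65-4x and 1.32 in Taichung65-2x. By equal sums, by the median ratio and by clean reads both were above 0, at 0.92, 0.86 and 1.04 in the tetraploid and 2.07, 2.31 and 2.57 in the diploid. With 1 library per group these differences were not tested.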

How the results depend on the processing

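Of 93 alternatives for the 9 ratios of osa-miR1425-5p, 80 kept direction and call, but many of these could not have done otherwise. The limits and the unlisted value cannot act on a miRNA listed for both ploidies at 544.0 or more. At such levels the pseudocounts hardly move a ratio. All 9 reversals came from the other scalings, so the 80 are no measure of robustness. Under clean reads the PMA ratio of Taichung65-4x to Taichung65-2x passed the 2-fold limit (log2 1.07), and with a fold of 1.5 it passed at 0.98. With a fold of 4 the diploid calls for MA over PMA (1.63) and SCP over PMA (1.32) were lost. By equal sums, by the median ratio and by clean reads the direction turned for SCP over MA in the tetraploid (0.090, 0.040 and 0.18) and in the diploid (0.16, 0.39 and 0.56) and for SCP over PMA in the tetraploid (0.92, 0.86 and 1.04, the last past 2-fold), since each raises the later libraries relative to the earlier ones. Of the 5 most like, 2 stayed among the 5 by Spearman's rho, 3 with a minimum of 20, and between 1 and 5 with 1 library left out, the 1 being without PMA-2x. Counts of calls over all miRNAs moved by over 1.5 times in 45 of 93 alternatives. With folds of 4 and 1.5 the calls at PMA, MA and SCP numbered 6 and 120, 3 and 156, and 10 and 188, where 2-fold gave 44, 55 and 90. With the same folds MA over PMA, SCP over MA and SCP over PMA gave 18 and 265, 23 and 227, and 123 and 321 in the tetraploid, where 2-fold gave 157, 119 and 259, and 18 and 190, 24 and 238, and 98 and 300 in the diploid, where 2-fold gave 105, 161 and 249. Unlisted miRNAs at 0.01 raised the ploidy calls to 96, 103 and 151, and the other scalings lowered the diploid calls against PMA to 63 to 67 at MA and 162 to 170 at SCP.

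No paired analysis was possible because the replicate number pairs no repeated libraries: each group had 1. The ploidies can be matched by stage, as the 3 ploidy ratios are, but stages are different conditions and were not used as replicates. With only 1 row of miR1425, summing its members gave the same values and the share of arms could not be computed. Intervals cover counting error alone, so the spread between plants is unknown.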
